A study of Mus musculus with 12 samples.

Results

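The complement genes of the mouse cortex were examined: C1qa, C1qb and C1qc, which encode the 3 chains of C1q, C4b and C3, which encode components further down the cascade, and C3ar1 and Itgam, which encode receptors for C3 fragments. These 7 genes were chosen by name, as the rows of the deposited expression tables that carry one of these symbols at both ages. They account for 8 of the 48526 rows because 2 gene IDs are listed under Itgam. RNA was sequenced from 12 cortices, 3 in each of 4 groups: non-transgenic controls and TAU58/2 transgenic mice at 3 months of age, and the same genotypes at 10 months. In the TAU58/2 line a human tau transgene with the P301S change is driven by a neuronal Thy1 promoter, so it is made in neurons and not in the glia that make most complement. All mice were of the C57Bl/6 background and untreated, and the animals of a group are biological replicates per the series' design text. The tissue was whole cortex, in which fewer cells of a type and less RNA per cell cannot be told apart. Values are FPKM as deposited, that is, sequenced fragments relative to the length of the transcript and to the size of the library.

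Complement is a cascade of proteins that tags material for removal. In the classical pathway C1q binds a target, its partner proteases C1r and C1s cleave C4 and then C2, and the resulting enzyme cleaves C3. C3 fragments on the target are bound by complement receptor 3, whose alpha chain is the product of Itgam, and the soluble fragment released from C3 signals through the receptor encoded by C3ar1. In the brain C1q comes mostly from microglia, where it is known for marking synapses for engulfment. C4b is made by astrocytes and oligodendrocytes among others, and Itgam and C3ar1 are receptors of microglia and other myeloid cells. C1q protein contains its A, B and C chains in equal number.

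The C1q genes are neighbours on chromosome 4 (GRCm38, minus strand), in the order C1qb at chr4:136880129-136886187, C1qc at chr4:136889804-136893065 and C1qa at chr4:136895917-136898803, a span of 18675 bases. The bases just upstream of the transcription start are shown for C1qb and C1qc, neighbours whose levels followed different patterns over the libraries, and for C3, which was listed at 0 throughout. They come from RefSeq on GRCm38, 5′ to 3′ in the direction of transcription, cut where an annotated transcript begins. Capitals mark the letters AGGAAG on either strand (CTTCCT when read on the other), which contain the GGAA core bound by ETS-family factors such as PU.1, a regulator of myeloid genes.
C1qb (chr4:136886201-136886450, minus strand): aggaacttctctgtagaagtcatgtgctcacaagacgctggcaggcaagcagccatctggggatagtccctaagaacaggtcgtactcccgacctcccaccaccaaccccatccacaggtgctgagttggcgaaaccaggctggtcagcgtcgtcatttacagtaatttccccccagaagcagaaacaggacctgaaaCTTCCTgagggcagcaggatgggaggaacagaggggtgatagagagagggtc
C1qc (chr4:136893066-136893164, minus strand): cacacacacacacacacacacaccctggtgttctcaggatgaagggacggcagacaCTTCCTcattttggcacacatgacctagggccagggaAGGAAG
C3 (chr17:57228137-57228386, minus strand): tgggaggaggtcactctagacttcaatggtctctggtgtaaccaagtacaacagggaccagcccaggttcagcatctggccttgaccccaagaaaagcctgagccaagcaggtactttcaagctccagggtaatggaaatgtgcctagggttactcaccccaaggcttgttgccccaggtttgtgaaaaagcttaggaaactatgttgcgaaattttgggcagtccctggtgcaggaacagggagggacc
The C1qb window of 250 bases held 1 match and the C3 window of 250 bases held 0, while 29.5% of the 32851 RefSeq promoter windows of that length held at least 1. The C1qc window was only 99 bases long and held 2 matches, against 12.0% of windows cut to that length with any. Of the other members in the RefSeq table, Itgam had 1 match in 250 bases and C3ar1 had 0 in 246. The table held 5 of the 7 members, without C1qa and C4b. These matches describe the letters only.

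The libraries summed to between 125933 and 158077 FPKM, with 12828 to 13914 genes above 0, and the absolute read depth is unknown. Steps in the low values put the relative depth of the libraries within 1.37-fold, a weak estimate, since only 4.86% to 6.14% of the low genes lay on the ratio it rests on. The genotype labels were checked on Mapt, the tau gene, and on Thy1. At 3 months Mapt was 6.64 to 12.0 FPKM in the control libraries and 43.3 to 47.6 in the transgenic ones. Thy1 also followed the labels at 3 months, at 105 to 140 FPKM in controls and 410 to 441 in transgenics. At 10 months Mapt was 42.7, 8.13 and 9.08 in libraries labelled control and 42.6, 12.4 and 3.31 in those labelled transgenic. Thy1 did not follow the labels at that age either (115, 314 and 176 against 172, 114 and 159 FPKM). The 10-month groups are therefore given as labelled, and every direction between them rests on labels that Mapt and Thy1 did not follow. Markers of cortical cells were present in every library, with sums over their lists of 665 to 1104 FPKM for neurons, 341 to 650 for astrocytes, 333 to 766 for oligodendrocytes and 13.5 to 36.7 for endothelium, while liver genes were at 0. Genes of blood cells (12.7 to 142 FPKM) and choroid plexus (5.24 to 734 FPKM) varied more, and pituitary genes summed to at most 53.8 FPKM except in the library labelled 10-month transgenic 1, with 13477 FPKM, of which Gh, the growth hormone gene, made up 11228. An exact 0 in these tables need not mean absence, since 181 of the 2683 genes that averaged 10 FPKM or more (6.75%) were listed at 0 in at least 1 library. Among these were the ribosomal protein gene Rpl8 (median 126 FPKM) and the respiratory chain gene Cox8a (median 645 FPKM), each listed at 0 in 1 library. Whether values near 0, or far under a gene's other values, in some libraries are failed estimates of the same kind was not tested. This applies to the 10-month values of Mapt and to all low values given below. Among these are values of C1qa, C1qb, C1qc, C4b, C3ar1, Itgam, Igf1r, Cx3cr1, Tmem119, Araf, Selplg, Zfp763, Nhlrc1, Adamts1, Rbmxl1, Rpl39-ps and Parp12.

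The C1q genes were the members with values above 0 in all 12 libraries. C1qa, the A chain, was 36.4, 32.0 and 31.1 FPKM in the 3-month controls, 11.9, 29.0 and 30.5 in the 3-month transgenics, 28.1, 39.0 and 26.2 in the 10-month controls and 30.9, 25.9 and 48.5 in the 10-month transgenics. Apart from the low value of the library labelled 3-month transgenic 1 and the high value of 10-month transgenic 3, C1qa stayed near its median of 30.7 FPKM. Its group means were 33.2 ± 2.83 FPKM (SD, n = 3) in 3-month controls, 23.8 ± 10.3 in 3-month transgenics, 31.1 ± 6.90 in 10-month controls and 35.1 ± 11.9 in 10-month transgenics. The 3-month transgenic values all lay under the control values, by a margin of 30.5 against 31.1 FPKM between the nearest libraries, and the other pairs of groups overlapped.

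C1qb, the B chain, fell into a low and a high set of libraries that cut across the groups. It was 6.92, 6.31 and 35.3 FPKM in the 3-month controls, 7.78, 31.7 and 35.2 in the 3-month transgenics, 8.23, 43.7 and 6.01 in the 10-month controls and 37.7, 3.99 and 8.21 in the 10-month transgenics. No library lay between 8.23 and 31.7 FPKM, a step of 3.85-fold, with 7 libraries below it and 5 above. The high set held 1 of 3 libraries in the 3-month control, 10-month control and 10-month transgenic groups and 2 of 3 in the 3-month transgenic group. Each group spanned the step, so the SDs were wide: 16.2 ± 16.6 FPKM (SD, n = 3), 24.9 ± 14.9, 19.3 ± 21.2 and 16.6 ± 18.3 in the order above, and all groups overlapped. A step this wide was not particular to C1qb. Of the 2683 genes that averaged 10 FPKM or more, 16.6% had one as wide.

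C1qc, the C chain, had its lowest values at 10 months. It was 24.0, 13.1 and 16.9 FPKM in the 3-month controls, 18.9, 15.8 and 16.2 in the 3-month transgenics, 15.5, 4.31 and 10.1 in the 10-month controls and 4.77, 2.76 and 4.03 in the 10-month transgenics. The 4 libraries under 5 FPKM were the 3 labelled 10-month transgenic and the library labelled 10-month control 2. All 3-month libraries were at 13.1 FPKM or more, a level that only the 10-month control 1 library reached among the older ones. Group means were 18.0 ± 5.58 FPKM (SD, n = 3), 17.0 ± 1.70, 9.99 ± 5.62 and 3.85 ± 1.02, again in the order 3-month control, 3-month transgenic, 10-month control and 10-month transgenic.

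**Figure D1:**
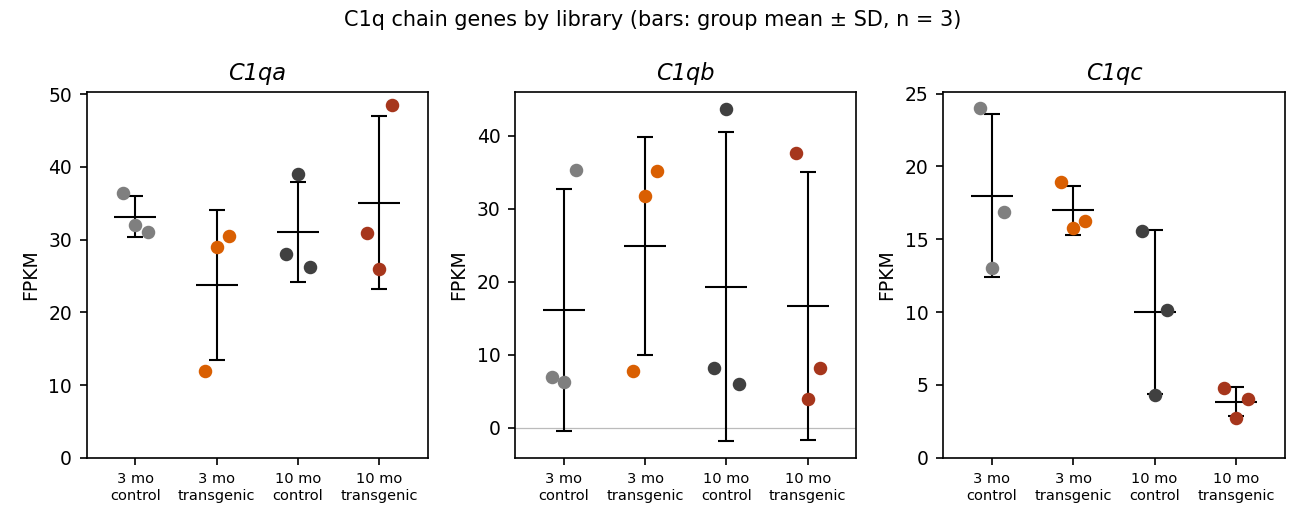
FPKM (vertical axes) of C1qa, C1qb and C1qc in each library, by age and genotype label; points are libraries and bars are the group mean ± SD (n = 3). C1qb lies either at 8.23 FPKM or less or at 31.7 or more in every group, and the C1qc points of the 10-month transgenic group lie at 4.77 FPKM or less.

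The deposited values of the 3 chains did not keep a fixed proportion. FPKM is scaled to transcript length, so levels of the chains were set side by side within a library. Failed estimates of single values would change these ratios, which was not tested. C1qa was the highest of the chains in 6 libraries, C1qb in 5 and C1qc in 1, the library labelled 3-month transgenic 1. The ratio of C1qb to C1qa ranged from 0.154 to 1.22 over the 12 libraries. The ratio of C1qc to C1qa ranged from 0.408 to 0.661 in 3-month controls, 0.532 to 1.59 in 3-month transgenics, 0.110 to 0.554 in 10-month controls and 0.0831 to 0.154 in 10-month transgenics. Summed over the 3 genes, C1q ranged from 32.7 to 87.0 FPKM with a median of 64.0, and the group means of this sum were 67.3 ± 15.9 FPKM (SD, n = 3), 65.7 ± 23.6, 60.4 ± 23.5 and 55.6 ± 20.8 in the order above. As a description over 12 libraries that share depth and processing, Pearson's r of the log2 values was 0.23 between C1qa and C1qb, -0.34 between C1qa and C1qc and 0.03 between C1qb and C1qc (Spearman's rho 0.39, -0.13 and 0.08).

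The spread of the C1q genes was set beside that of other genes and of microglial genes. The highest library was 4.08 times the lowest for C1qa, 10.9 times for C1qb and 8.71 times for C1qc, against a median of 2.73 times over those 2683 genes. Among them 33.4% varied as much as C1qa, 16.2% as much as C1qb and 18.4% as much as C1qc. Of 15 microglial genes, 9 varied less than C1qa, among them Ctss, the protease cathepsin S (29.0 to 59.1 FPKM), and Csf1r, the receptor that sustains microglia (13.1 to 25.6 FPKM). The other 6 varied more than C1qb or were listed at 0 in some library, among them the fractalkine receptor gene Cx3cr1, which was at most 0.0913 FPKM in 4 libraries and at least 5.84 in the other 8. Tmem119 was at most 0.362 FPKM in 3 libraries and at least 6.81 in the other 9. The sum of the 15 genes was 139 to 159 FPKM in 3-month controls, 138 to 157 in 3-month transgenics, 131 to 144 in 10-month controls and 128 to 190 in 10-month transgenics, so the summed level of microglial genes overlapped between all groups. Markers of macrophages at the brain's borders summed to at most 1.01 FPKM, with Cd163, Lyve1 and Ms4a7 at 0, and neutrophil markers to at most 0.320 FPKM.

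**Figure D2:**
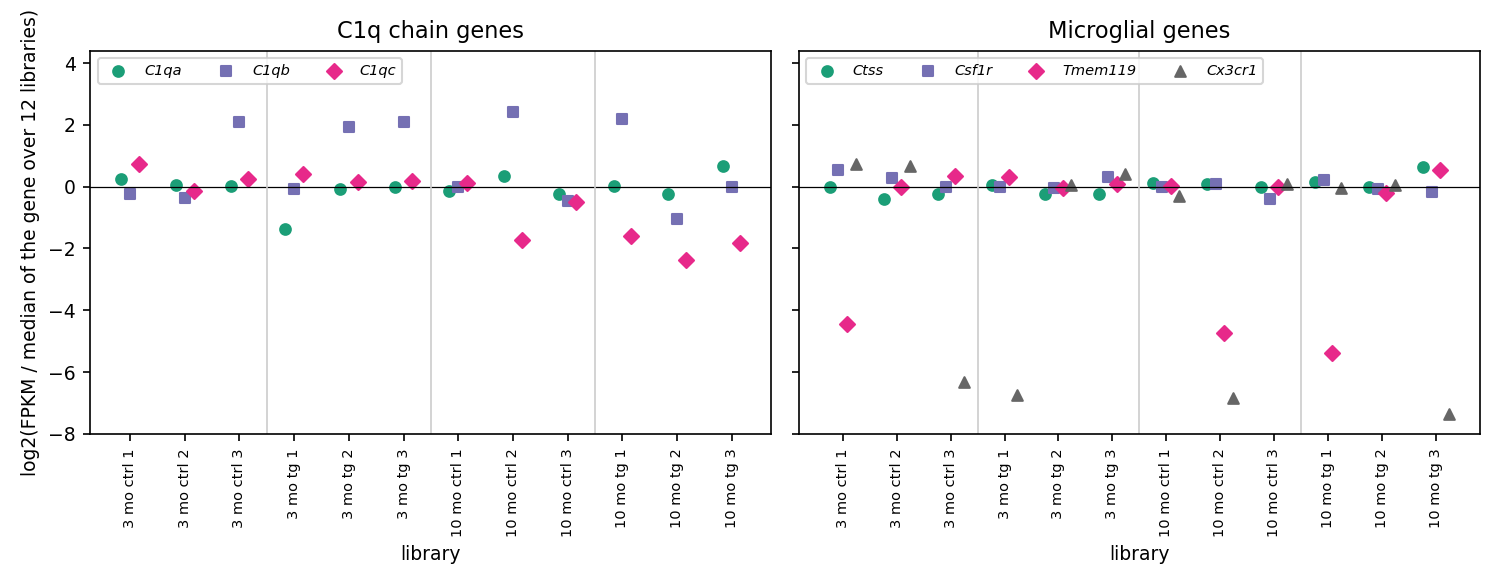
Log2 of FPKM over the gene's median (vertical axes, 12 libraries along the horizontal axes) for the C1q genes, left, and 4 microglial genes, right; each point is 1 library and vertical lines part the groups. Ctss and Csf1r stay close to their medians, Tmem119 in 3 libraries and Cx3cr1 in 4 lie far under theirs, and the C1q genes move apart from each other within libraries.

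C4b, the fourth component that C1s cleaves, reached 1 FPKM only at 10 months. At 3 months it was listed at 0, 0.0905 and 0 FPKM in controls and 0.0346, 0 and 0 in transgenics. At 10 months it was listed at 0, 5.23 and 1.71 FPKM in controls and 3.61, 2.93 and 0 in transgenics. Both 10-month groups thus held 1 library at 0 and 2 libraries between 1.71 and 5.23 FPKM, and they overlapped each other and the 3-month groups. This pattern was shared by 7 of the 9846 genes that entered the test across all genes (0.0711%), C4b included. All 7 were below 0.1 FPKM in every 3-month library and at 1 FPKM or more in at least 4 of the 10-month ones. The reverse was found for 0 genes. These cut-offs match the values of C4b itself, so the counts describe the pattern and do not test it. Another of the 7 was Igf1r, the receptor for insulin-like growth factor, at most 0.0462 FPKM at 3 months. It was 0.0351, 3.12, 3.24, 2.80, 2.95 and 0.0149 FPKM in the 10-month libraries in the same order. C4b and Igf1r were high in the same 4 libraries, labelled 10-month control 2, control 3, transgenic 1 and transgenic 2. C4b lies at chr17:34728380-34743882 (GRCm38, minus strand), 65209 bases from its near copy C4a, and 48.3% of the 31-base words of its transcripts also occur in those of C4a, so the division of reads between them is uncertain. C4a itself was listed at 0.0623 FPKM or less in all libraries.

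C3, on which all complement pathways converge, was listed at 0 in all 12 libraries, and no comparison was possible. It shares no 31-base word with another gene's transcripts. This is no rare entry, as 27164 of the 48526 rows (56.0%) were 0 throughout.

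The receptor genes were low and scattered over the groups. C3ar1 was 0, 0.570 and 0.199 FPKM in the 3-month controls, 0, 0 and 0.465 in the 3-month transgenics, 0.00633, 0.726 and 0.224 in the 10-month controls and 0.380, 0.566 and 0 in the 10-month transgenics. Every group held at least 1 library under 0.01 FPKM and at least 1 above 0.4, so all groups overlapped. Itgam, the alpha chain of complement receptor 3, was 0.239, 0 and 2.14 FPKM in the 3-month controls, 0, 0.413 and 1.57 in the 3-month transgenics, 0, 0 and 1.83 in the 10-month controls and 0 in all 10-month transgenics. In the first 3 groups 1 library each lay above 1.5 FPKM, and Itgam was listed at 0 in 7 of 12 libraries. Its beta chain gene Itgb2 was above 0 in a single library, at 0.00936 FPKM. The second ID under the name Itgam, ENSMUSG00000108596, is called Gm49368 in the GENCODE annotation, overlaps Itgam on chromosome 7 and shares 71.3% of its 31-base words with it. It was 0.117 FPKM in 3-month control 1, 0.106 in 3-month transgenic 3 and 0 elsewhere, and the division of reads between these IDs is uncertain.

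**Figure D3:**
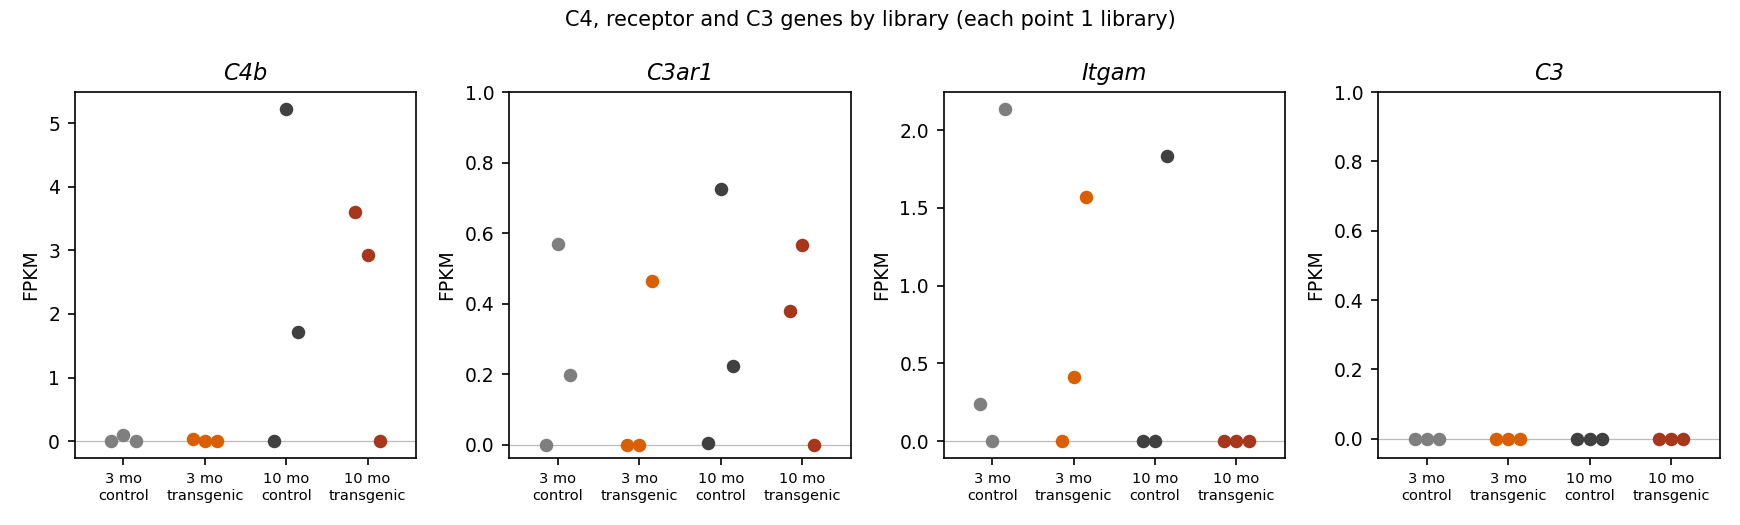
FPKM (vertical axes, each with its own scale) of C4b, C3ar1, Itgam (ENSMUSG00000030786) and C3 in each library, by age and genotype label; each point is 1 library. C4b passes 1 FPKM in 4 libraries, all of 10 months, Itgam is at 0 in all 3 libraries labelled 10-month transgenic, and C3 is at 0 in all 12.

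The first comparison asked whether the transgene went with a difference in complement expression at each age. No member passed the test at either age. Differences are given on the log2(FPKM + 0.1) scale with the standard error of limma's fit to all genes and its Benjamini-Hochberg adjusted p, and the 4 members that averaged 1 FPKM or more in some group entered that fit (C1qa, C1qb, C1qc and C4b). At 10 months 0 of the 4 passed an adjusted p of 0.05, where 0.0102% of the 9846 genes did. C1qc had the largest difference there among the C1q genes, a log2 difference of -1.20 ± 0.43 (SE; 95% interval -2.16 to -0.25, limma unadjusted p = 0.0184, adjusted p = 0.969), in the direction of lower values in the libraries labelled transgenic. It lay between -1.71 and -0.80 when each library was left out in turn. C1qc was the 1 member of 4 with an unadjusted p under 0.05, which 4.4% of all genes reached in this comparison. Its groups overlapped through the 4.31 FPKM of 10-month control 2, and 0 members were separated in either direction, where 4.37% of all genes were higher and 3.89% lower without overlap. C1qa differed by 0.15 ± 0.37, C1qb by -0.27 ± 1.07 and C4b by 0.07 ± 1.64 (limma adjusted p = 1 each). The 95% interval was -2.65 to 2.12 for C1qb and -3.59 to 3.73 for C4b, so large differences in either direction remain possible.

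At 3 months 0 of the 4 members passed, against 0.0406% of all genes, and 0 had an unadjusted p under 0.05, against 3.39%. The log2 difference of transgenic from control was -0.59 ± 0.37 (SE) for C1qa, 0.82 ± 1.07 for C1qb, -0.04 ± 0.43 for C1qc and -0.17 ± 1.64 for C4b (limma adjusted p = 1 each). C1qa was the member whose groups did not overlap here, lower in transgenics, while 3.54% of all genes were separated in that direction and 4.44% in the other. Without the library labelled 3-month transgenic 1 its log2 difference was -0.15. The difference between the label effects of the ages was 0.74 ± 0.52 for C1qa, -1.09 ± 1.51 for C1qb and -1.16 ± 0.61 for C1qc (limma adjusted p = 0.987 each), with 0.0508% of all genes called and 3.32% under an unadjusted p of 0.05, which 0 members reached. For C4b it was 0.24 ± 2.32 (limma adjusted p = 1.00).

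The second comparison asked how expression differed between 10 and 3 months in each genotype. The ages were deposited in separate tables, so age and table cannot be told apart. C1qc was lower at 10 months in transgenics, with no overlap between the groups (3.65% of all genes were separated in this direction and 5.78% in the other) and a log2 difference of -2.14 ± 0.43 (SE; 95% interval -3.10 to -1.19), a fold of 0.227. Its limma unadjusted p was 0.000543 and its adjusted p 0.477, so it did not pass. An unadjusted p under 0.05 was found for 4.31% of all genes, and 6.51% differed as much in either direction. In controls the C1qc difference was -0.98 ± 0.43 (limma unadjusted p = 0.0454, adjusted p = 0.994). There 4.19% of all genes had an unadjusted p under 0.05, and 0 members were separated, against 6.8% of genes higher and 3.25% lower. Averaged over the labels it was -1.56 ± 0.30 (95% interval -2.24 to -0.89, limma unadjusted p = 0.000435, adjusted p = 0.306), and it stayed between -1.76 and -1.31 when each library was left out in turn, with adjusted p from 0.0841 to 0.562. The estimate of this average, the mean of all 10-month less that of all 3-month libraries, does not depend on the genotype labels, though its standard error does. This holds only with all 12 libraries, since leaving 1 out makes the groups unequal in size. Without the 10-month transgenic 1 library, which carried Gh, the average over the labels was -1.64, a value that does depend on the labels.

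The fitted age differences of C1qa and C1qb were smaller than those of C1qc in each genotype. The age difference of C1qa was -0.11 ± 0.37 (SE) in controls (limma adjusted p = 1) and 0.63 ± 0.37 in transgenics (limma adjusted p = 0.974), and that of C1qb was 0.16 ± 1.07 (limma adjusted p = 1) and -0.93 ± 1.07 (limma adjusted p = 0.974). C4b had fitted log2 differences of 2.99 ± 1.64 in controls (limma adjusted p = 0.994) and 3.23 ± 1.64 in transgenics (limma adjusted p = 0.974), and 3.11 ± 1.16 averaged over labels (limma unadjusted p = 0.0230, adjusted p = 0.935, in a comparison where 4.4% of all genes had an unadjusted p under 0.05). Since C4b was listed at 0 in 6 libraries these fitted sizes depend on the added 0.1 FPKM and do not measure a fold. C4b also entered the fit only through its 10-month groups, which averaged 2.31 FPKM in controls and 2.18 in transgenics. At 3 months its means were 0.0302 and 0.0115 FPKM. Its age differences were thus favoured by the filter, and their p-values give no support for a rise. In none of the age comparisons did a member pass an adjusted p of 0.05, where 0.0305% of all genes did in controls, 0.0203% in transgenics and 0.0813% averaged over labels. The difference by label averaged over ages likewise called 0 members and 0.0508% of all genes, with 0 members and 3.75% of genes under an unadjusted p of 0.05. C3ar1 and Itgam were too low for the fit. The two-sided exact permutation p over 3 against 3 libraries lay between 0.7 and 0.9 for C3ar1 and between 0.4 and 1 for Itgam. The smallest possible p is 0.1, but shared values of 0 raised it for Itgam in some comparisons. For label at 10 months only 10-month control 3 was above 0 (1.83 FPKM), so the p was fixed in advance. For age in transgenics only 0.413 and 1.57 FPKM, both at 3 months, were above 0. The p of 0.4 was thus the smallest possible there, and neither comparison could show a difference.

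**Figure D4:**
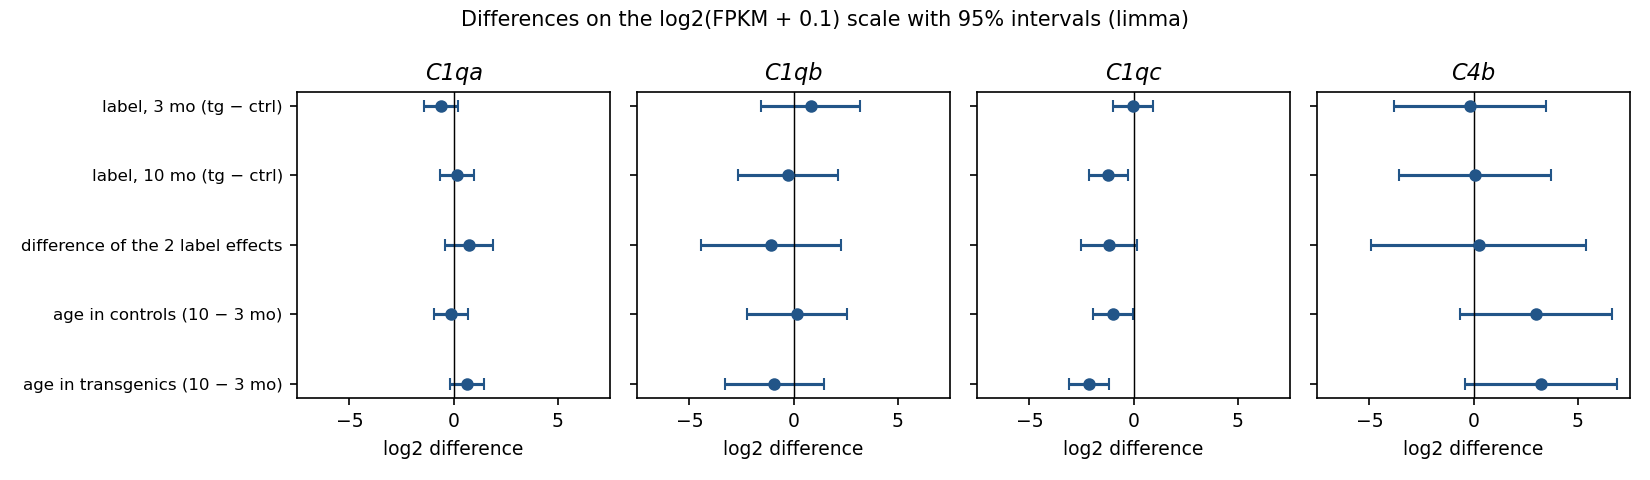
Fitted differences (horizontal axes, log2 scale) of the 4 members that entered the limma fit, for the comparisons named at the left; points are estimates and bars 95% intervals, not adjusted for the number of genes. The C1qc intervals for label at 10 months and for age in both genotypes lie under 0, C1qb and C4b intervals are wide, and 0 of these differences passed an adjusted p of 0.05.

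The authors' deposited tables give their own comparison of the labels at each age. In the authors' deposited table the C1qc ratio of transgenic over control at 10 months was 0.484 (p = 0.188, q = 0.854, test not named). The same table gave C1qa a ratio of 1.03 and C1qb a ratio of 1.08 at 10 months, and the authors' deposited table for 3 months gave 0.645 for C1qa, 1.73 for C1qb and 1.08 for C1qc, all with q = 0.904. The C1qb ratio at 10 months and the C1qc ratio at 3 months go the other way from the fitted log2 differences (-0.27 and -0.04). They also go against the deposited mean FPKM. These were 19.3 in controls and 16.6 in transgenics for C1qb, and 18.0 and 17.0 for C1qc. How the ratios were computed is not given.

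The rest of the complement system was read from a list of 54 genes that includes the members. Of these, 22 were listed at 0 in all 12 libraries, 42 stayed under 1 FPKM everywhere and 10 entered the limma fit, of which 0 passed in any of the 7 contrasts. The proteases that act with C1q were low, with C1ra at most 1.60 FPKM and above 0 in 5 libraries, C1s1 at most 0.0575 FPKM, and C2, which is cleaved after C4, at most 0.0625 FPKM. In the lectin pathway 7 of 9 genes were at 0 throughout, in the alternative pathway 3 of 4 (C3, Cfb and Cfd), and among the terminal components that form the membrane attack complex 5 of 7. Some regulators had high levels, while 10 of the 15 stayed under 1 FPKM in all 12 libraries. Clu, which encodes clusterin and restrains the terminal complex, was 154 to 222 FPKM, Vtn, the vitronectin gene with a similar role, 18.4 to 25.2 FPKM, and Susd4, a membrane-bound inhibitor gene, 10.1 to 13.7 FPKM. Each of these varied less over the libraries, at most 1.44-fold from lowest to highest, than any C1q gene. Of 15 regulators 5 entered the fit and 0 passed in any contrast. Over the 10 complement genes tested the median log2 difference by label was 0.05 at 10 months and -0.09 at 3 months, and that by age was -0.06 in controls and 0.01 in transgenics. Over all 9846 genes the same medians were 0.01, 0.02, 0.06 and 0.05.

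Some genes outside the complement system followed the members over the 12 libraries, ranked by Pearson's r of the log2 values among 9845 other tested genes and given as a description. Closest to C1qa were Araf (r = 0.93, Spearman's rho 0.65), a kinase gene, Selplg (r = 0.90, rho 0.69), which encodes the selectin ligand of leukocytes and is expressed in microglia, and Zfp763 (r = 0.89, rho 0.48). All of them were lowest in the library labelled 3-month transgenic 1, at 1.01 FPKM for Araf, 0.231 for Selplg and 0.0412 for Zfp763, where C1qa was 11.9 FPKM. Closest to C1qb were Nhlrc1 (r = 0.86, rho 0.74), Adamts1 (r = 0.82, rho 0.69) and Rbmxl1 (r = 0.81, rho 0.65). Nhlrc1 was listed either at 0 or at 5.26 to 6.54 FPKM, Adamts1 ran from 0 to 1.76 and Rbmxl1 from 0.0214 to 21.6. Their r values thus reflect in part which libraries were near 0. Closest to C1qc were Nrsn1 (r = 0.87, rho 0.64), Mycn (r = 0.84, rho 0.83) and Emp2 (r = 0.84, rho 0.91). The other C1q genes ranked far down, C1qb at 2178 from C1qa and C1qa at 8198 from C1qc. C4b went with Igf1r (r = 0.98, rho 0.78), Rpl39-ps (r = 0.98, rho 0.88) and Parp12 (r = 0.94, rho 0.71), and opposite to C1qc (r = -0.73, rho -0.59, over libraries that also differ in age). Rpl39-ps was likewise listed either at 0 or at 2.72 to 5.61 FPKM, and Parp12 ran from 0 to 2.35.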

How the data were processed

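RNA of the cortex was measured in 12 mice. Per the labels' protocols, total RNA was extracted with Maxwell kits and made into stranded libraries after ribosomal RNA depletion. Per the file headers, the authors deposited FPKM per gene in a table for each age, with group mean FPKM, a fold ratio, its log2 value, p-values and q-values, whose test is not named per the file headers. The submitters' processing notes name the tools HISAT2 2.0.4, SAMtools 0.0.19, StringTie 1.3.0 and R 3.4.2 and the builds mm10 and GRCm38. Annotation and options: not given in the sources used here. Groups came from the labels.

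Deposited FPKM were analysed as log2(FPKM + 0.1). The 9846 genes that averaged 1 FPKM or more in some group were fitted with limma 3.58.1 in R 4.3.3 (a mean per group over all 12 libraries, eBayes with trend and robust), with Benjamini-Hochberg adjustment over these genes and a threshold of 0.05. The script was tested on simulated data. Values of genes near 0 are compressed by the added 0.1. Members under this level were compared by a two-sided exact permutation test of FPKM. The tables of both ages were fitted together, and whether values were scaled within a table was not tested. Other pseudocounts, filters, scalings, a replicate block and leaving out each library were tried as alternatives. Coordinates and shared 31-base words come from GENCODE release M21 on GRCm38, and upstream sequences from RefSeq.

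The members, the 17 gene lists with 149 distinct genes and the rule for named genes were chosen with earlier results of these data known. Named were the members, up to 3 genes per list with the highest mean, genes that touch a result, Mapt and Thy1, and the 3 genes most like each tested member; 1 gene that this rule names is not reported here. Cx3cr1, Tmem119, Igf1r, Rpl8 and Cox8a were singled out after their values were seen. No read counts were used here.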

Additional observations from a re-analysis of the deposited data

How the results depend on the processing

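Under the alternative settings 0 of 560 fitted member values passed the threshold, and 27 had the other sign. Without a filter beyond a value above 0 in 3 libraries, more genes were tested and the calls over all genes were 2 for label at 10 months (1 in the report), 9 at 3 months (4), 9 for the difference of the label effects (5), 7 for age in controls (3), 7 for age in transgenics (2) and 9 for label averaged over ages (5). With a filter of 5 FPKM fewer genes were tested, and the calls were 0 for label at 10 months, 2 at 3 months, 1 for the difference of the label effects, 0 for age in controls, 2 for label averaged over ages and 2 for age averaged over labels (8). C4b does not enter under that filter. The replicate block gave 0 for label at 10 months, 1 for the difference of the label effects, 1 for label averaged over ages and 2 for age averaged over labels, and changed no call of a member. Same-numbered libraries did not deviate together (r from -0.123 to 0.0939, 0 of 18 pairs over 0.1, 2 of 12 libraries closest to their own number). The numbers thus gave no sign of pairing, though a small shared effect could go unseen in groups of 3. A pseudocount of 0.01 gave 2 for the difference of the label effects and 5 for age averaged over labels, plain eBayes gave 6 for age in transgenics, and fitting each age alone gave 0 for label at 10 months and 14 at 3 months; the cause was not tested.

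Leaving out each library in turn gave 0 to 8 calls for label at 10 months, 4 to 12 at 3 months, 2 to 11 for the difference of the label effects, 3 to 10 for age in controls, 2 to 13 for age in transgenics, 1 to 10 for label averaged over ages and 2 to 14 for age averaged over labels. The sign of some member differences depended on 1 library. For label at 10 months these were C1qa (-0.11 to 0.34), C1qb (-1.16 to 0.61) and C4b (-1.58 to 1.76), and at 3 months C1qc (-0.25 to 0.19) and C4b (-0.32 to 0.14). The difference of the label effects ran from -1.41 to 1.93 for C4b. Age in controls ran from -0.29 to 0.00041 for C1qa and from -0.71 to 0.96 for C1qb. Label averaged over ages ran from -0.17 to 0.72 for C1qb and from -0.87 to 0.80 for C4b, and age averaged over labels from -0.83 to 0.017 for C1qb. Differences of mean FPKM crossed 0 for C3ar1 in label at 10 months (-0.160 to 0.200), label at 3 months (-0.256 to 0.0556) and age in controls (-0.141 to 0.220), and for Itgam in label at 3 months (-0.586 to 0.541) and age in controls (-0.792 to 0.491). Quantile normalization turned C4b to 0.26 for label at 3 months, -0.19 for the difference of the label effects and 0.16 for label averaged over ages, which a pseudocount of 1 turned to 0.0042. The C1qc differences for label at 10 months and for age kept their sign in all of these.

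With 3 libraries per group, unknown depth and values listed at 0 for abundant genes, the intervals of C1qb and C4b are too wide to bound a difference usefully, and C3, C3ar1 and Itgam lie at levels where these tables give little information.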
